A study of Mus musculus with 14 samples.

Results

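Zbp1, Ripk1, Ripk3 and Mlkl encode the core proteins of a lytic form of cell death called necroptosis, and their transcripts were followed in 3 mouse tumour cell lines treated with an agonist of RIG-I or with a control agonist. The 4 genes were chosen by symbol, matched through the Ensembl identifier without its version. All 4 were found, each with 1 identifier, among the 34866 identifiers of the deposited tables. The lines were CT26, a colorectal carcinoma line from BALB/c mice, E0771, a mammary carcinoma line from C57BL/6 mice, and MC38, a colon adenocarcinoma line from C57BL/6 mice. In each line 100000 cells per well had been exposed for 24 h to 0.5 ug/ml of either agonist. CT26 had 3 libraries per agonist and E0771 and MC38 had 2 each, which makes 14 libraries. The labels do not say what the control agonist is, whether replicates were separate cultures or whether a line was 1 clone. The p-values therefore measure the spread between these libraries only, which may be technical. Untreated cells were not analysed here, and all fold changes are taken against the control-agonist libraries.

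RIG-I is a sensor of viral RNA in the cytosol whose activation leads to type I interferon. ZBP1 is a sensor of Z-form nucleic acids and is itself induced by interferon. Through a short motif called the RHIM, which RIPK1, RIPK3 and the adaptor TRIF also carry, ZBP1 binds RIPK3. RIPK1 links death receptors such as the TNF receptor to RIPK3, and can also act as a scaffold for survival signalling. RIPK3 is the kinase that phosphorylates MLKL, and phosphorylated MLKL permeabilises the plasma membrane. Caspase-8 with FADD and cFLIP cuts RIPK1 and RIPK3 and holds the pathway in check. The transcripts measured here report neither phosphorylation nor cell death.

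CT26 libraries held 32826742 to 40564102 counts, E0771 libraries 12413347 to 13399247 and MC38 libraries 12347361 to 18964563. Levels are counts-per-million (CPM) on library sizes scaled together over the 14 libraries, and a count of 0 allows up to 3 counts, or 0.0788 to 0.0915 CPM in a CT26 library, 0.213 to 0.241 CPM for E0771 and 0.155 to 0.24 CPM for MC38. The spread between replicates, as edgeR's biological coefficient of variation, was largest in E0771 (0.202) and smaller in CT26 (0.102) and MC38 (0.0304). Epcam and Cdh1, which define epithelial cells, were at or near 0 in all lines, with at most 0.152 and 0.561 CPM in any library. Other epithelial markers were present in part, and of 14 in all, 4 or 5 reached 1 CPM in every library of a group in CT26, 1 or 2 in E0771 and 3 in MC38. Among them were the keratin genes Krt18 and Krt20 in CT26 controls (23.9 ± 2.62 and 19.3 ± 0.422 CPM), Krt8 in E0771 (203 to 269 CPM) and Elf3 in MC38 controls (6.34 ± 0.141 CPM). All 9 mesenchymal markers reached 1 CPM in CT26 and MC38 and 6 in E0771, where Cdh2 had 0 control counts and Fn1 and Col1a2 were each at 0.193 ± 0.0466 CPM. The summed level of 10 leukocyte markers was 3.29 to 3.87 CPM with control and 5.58 to 6.07 CPM with RIG-I agonist in CT26, 3.21 to 7.92 and 4.84 to 12 CPM in E0771, and 4.06 to 5.3 and 3.72 to 4.07 CPM in MC38. Of these 10 markers only Cd68 reached 1 CPM in every library of a group, Adgre1 was listed at 0 in every CT26 and E0771 library and Ptprc, which encodes CD45, did not exceed 0.676 CPM anywhere. In CT26 3 of the 10 leukocyte markers could be tested and 2 rose, where 19.8% of all genes rose. These were Fcgr1 and Spi1, which went from 2 to 41 and from 13 to 120 counts in all (log2 4.18 and 3.24). Of 9 mesenchymal markers tested in each, 7 fell and 1 rose in CT26, and 6 fell and 1 rose in MC38. Of all genes, 18.6% fell in CT26 and 16.9% in MC38. The intermediate filament gene Vim was among the markers that fell (-0.18 and -0.32). The part of these markers in the results below was not tested.

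The complete set of 4 transcripts was present in MC38 under both agonists, in E0771 only with the RIG-I agonist, and in CT26 under neither. A gene was counted as expressed where it had at least 1 CPM in every library of a group. By that rule 3 of the 4 genes were expressed in CT26 with either agonist, and the missing one was Ripk3. In E0771 the count was 3 with the control agonist, where Zbp1 was below the threshold, and 4 with the RIG-I agonist. MC38 had 4 of 4 in both groups. Of 21850 protein-coding genes, 49.4% and 50.2% met the same rule in CT26 with control and RIG-I agonist, 48.2% and 48.6% in E0771, and 51.1% and 50.7% in MC38. Thresholds of 0.5 or 5 CPM, or of 1 RPKM (CPM per kilobase of annotated exon), gave the same counts in all 6 groups.

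**Figure D1:**
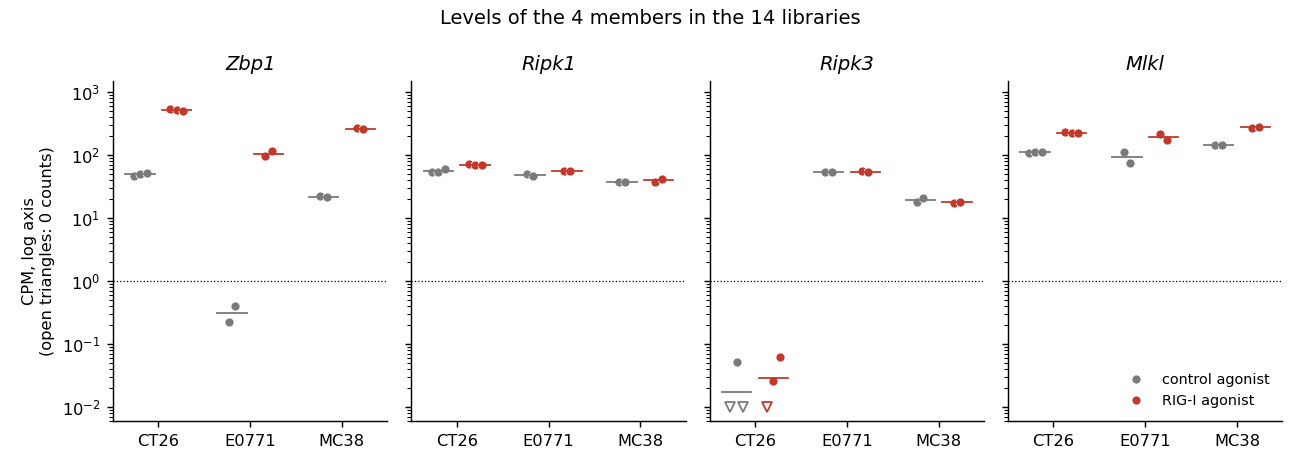
CPM of each gene in every library on a log axis, by line and agonist; horizontal bars are group means, open triangles are libraries with 0 counts and the dotted line is 1 CPM. Ripk3 in CT26 and Zbp1 in E0771 with control agonist lie below the line, and the other points lie at 17.6 CPM or higher.

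Zbp1 (ENSMUSG00000027514.14), the sensor, lies on the reverse strand of chromosome 2 at 173206612 to 173218923 (GRCm38). In CT26 its level was 46.1, 50.2 and 51.7 CPM with control and 531, 527 and 508 CPM with RIG-I agonist. In MC38 the control libraries had 22.2 and 21.7 CPM and the RIG-I libraries 266 and 262 CPM. E0771 started from 0.226 and 0.401 CPM, which is 3 and 5 counts, and reached 96.6 and 115 CPM. The 2 groups were far apart in each line, and the RIG-I libraries were highest in CT26, then MC38, then E0771, without overlap between lines.

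Zbp1 rose in all 3 lines, 10.9-fold in CT26 (log2 fold change 3.45, SE 0.07, adjusted p = 1.68e-13), 12-fold in MC38 (3.58, SE 0.05, adjusted p = 3.23e-22) and 332-fold in E0771 (8.37, SE 0.27, adjusted p = 0.00277). Because the E0771 controls held only 8 counts, the ratio of counts there, 341, carries a 95% counting interval of 173 to 791. Ranked by log2 fold change, Zbp1 was number 7 of 11728 genes tested in E0771, 28 of 12387 in MC38 and 111 of 13893 in CT26. The effect in E0771 exceeded that in CT26 by 4.98 on the log2 scale (SE 0.23, 95% interval of the CT26 minus E0771 difference -5.48 to -4.49, adjusted p = 2.59e-07) and that in MC38 by 4.80 (SE 0.25, adjusted p = 3.17e-07). Zbp1 was the 1 gene of the 4 whose effect was called different between lines, where 3.88% of all genes were called for CT26 against E0771, 2.11% for E0771 against MC38 and 3.8% for CT26 against MC38. With a variance estimated for each line, the same differences were -4.88 (adjusted p = 0.00595) and 4.70 (adjusted p = 0.00651). CT26 and MC38 differed by -0.18 (95% interval -0.45 to 0.08, adjusted p = 0.459), which passes no threshold and bounds the difference rather than showing equality.

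The lines already differed in Zbp1 under the control agonist. CT26 stood 7.29 above E0771 on the log2 scale (SE 0.18, adjusted p = 1.39e-12) and 1.17 above MC38 (SE 0.09, adjusted p = 9.28e-08), and E0771 was 69.5-fold below MC38 (adjusted p = 4.17e-11). In these control-agonist comparisons 70.3%, 73.6% and 64.1% of all genes tested differed between the lines, so a difference by itself was common. Line and deposited table cannot be told apart in these comparisons, nor can strain where CT26 is one side.

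**Figure D2:**
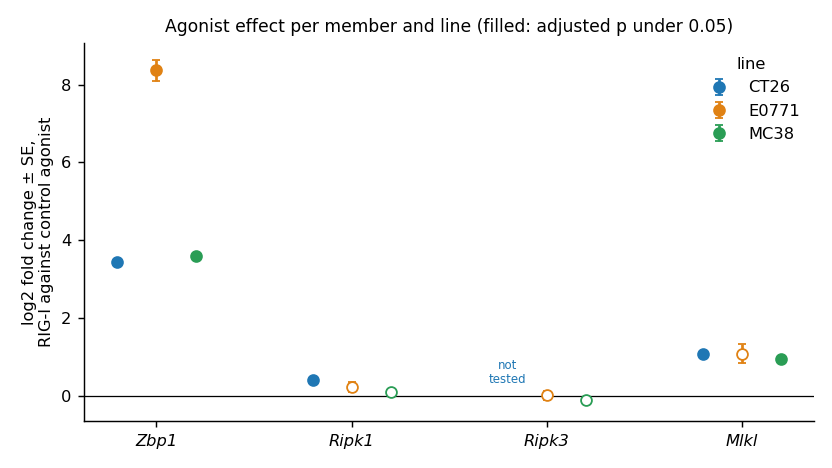
Log2 fold change of RIG-I against control agonist for each gene and line, with bars of 1 SE; filled points have an adjusted p under 0.05. Zbp1 in E0771 stands at 8.37, Mlkl lies near 1 in every line, and Ripk1 and Ripk3 lie between -0.12 and 0.39.

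Ripk1 (ENSMUSG00000021408.15), the kinase and scaffold at death receptors, lies on the forward strand of chromosome 13 at 34002363 to 34037147. It was expressed everywhere within a narrow range. In CT26 its level was 53.2, 54.6 and 59.4 CPM with control and 72.7, 68.5 and 70.8 CPM with RIG-I agonist, so the groups did not overlap. E0771 had 50.2 and 46.6 CPM against 55.5 and 55.4 CPM. In MC38 the values of 37.9 and 37 CPM with control and 37.6 and 41.9 CPM with RIG-I agonist overlapped.

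Ripk1 rose 1.31-fold in CT26 (log2 0.39, SE 0.06, adjusted p = 0.000303). The values were 0.21 in E0771 (95% interval -0.12 to 0.53, adjusted p = 0.676) and 0.09 in MC38 (-0.05 to 0.24, adjusted p = 0.33). These intervals include 0 and also small rises. The effect in CT26 was not shown to differ from that in MC38 (difference 0.25, 95% interval 0.03 to 0.48, adjusted p = 0.213) or in E0771 (0.15, interval -0.08 to 0.37, adjusted p = 0.544). Under control agonist CT26 was 1.49-fold and E0771 1.29-fold above MC38 (adjusted p = 1.29e-05 and 0.00169). The step from E0771 to CT26 was 0.20 (adjusted p = 0.0255), and it did not pass with a variance per line (adjusted p = 0.153). The annotated exons of Ripk1 share 511 bases with the pseudogene Gm17084 on the same strand and 241 bases with Serpinb6a on the opposite strand, and whether the counting used strand was not given in the sources used here. Gm17084 held 3 to 114 counts per library and Serpinb6a 163 to 447 CPM, so the level of Ripk1 is uncertain by the reads these genes share.

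Ripk3 (ENSMUSG00000022221.14), the kinase that acts on MLKL, lies on the reverse strand of chromosome 14 at 55784995 to 55788865. In CT26 it had 0, 2 and 0 counts with control and 0, 1 and 2 counts with RIG-I agonist, in libraries of over 32826742 counts, which is at most 0.061 CPM. E0771 held 53.7 and 54.3 CPM with control and 54.9 and 53.5 CPM with RIG-I agonist. MC38 held 18.3 and 20.5 CPM against 17.6 and 18.1 CPM. Every E0771 library was above every MC38 library, and every MC38 library was far above all CT26 libraries.

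Under control agonist the ratio of Ripk3 counts, scaled for depth, was 2950 between E0771 and CT26 (95% counting interval 814 to 24300) and 1050 between MC38 and CT26 (290 to 8720). These differences were called in edgeR's test over 14 libraries (adjusted p = 2.28e-12 and 1.86e-11). Both CT26 control counts came from replicate 2. Without that library the CT26 controls held 0 counts, and the fitted log2 difference, which then depends on the prior count, went from -11.16 to -13.25 against E0771 and from -9.68 to -11.77 against MC38, still called (adjusted p = 1.59e-10 and 8.79e-10). With RIG-I agonist the ratios were 1940 (664 to 9440) and 643 (219 to 3130). E0771 was 2.78-fold above MC38 under control agonist (log2 1.48, SE 0.17, adjusted p = 4.94e-06). The agonist was followed by no called change of Ripk3, with 0.01 in E0771 (95% interval -0.29 to 0.32, adjusted p = 0.986) and -0.12 in MC38 (-0.31 to 0.08, adjusted p = 0.361). In CT26 the counts were too few for a test, and no fold is given because both groups are at or under the limit of 3 counts. Ripk3 was 1 of 27 protein-coding genes, or 0.35% of the 7720 with at least 10 CPM in every E0771 and MC38 library, that had at most 3 counts in each CT26 library. By the same rule 72 genes were near 0 in E0771 alone and 11 in MC38 alone. The limit of 3 counts is a higher CPM in the shallower E0771 and MC38 libraries, so these numbers are not directly comparable between lines.

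The surroundings of Ripk3 were examined after its values had been seen. Within 100 kb of its start, 12 other protein-coding genes have their start. Of these, 4 had at least 1 CPM in every CT26 library, against 5 in E0771 and 4 in MC38. Nop9, an RNA-binding protein gene whose start lies 43.2 kb away, had 51.3 to 60.6 CPM in CT26, with E0771 at 76.6 to 128 and MC38 at 65.6 to 84 CPM. Khnyn, 96.1 kb to the other side, had 20.3 to 26.1 CPM in CT26, with E0771 at 29.6 to 39.8 and MC38 at 20.1 to 27.5 CPM. The nearest neighbour Adcy4, an adenylate cyclase gene whose start lies 4.77 kb away, had at most 0.301 CPM in any line. Thus Nop9 and Khnyn were transcribed in CT26 at levels of the same order as in the other lines. Between them, besides Ripk3, only Nfatc4 passed 1 CPM in any library. Its start lies 34.3 kb away, and it had 0.791 to 1.86 CPM in CT26. The stretch closest to Ripk3 is therefore not described by well expressed genes.

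**Figure D3:**
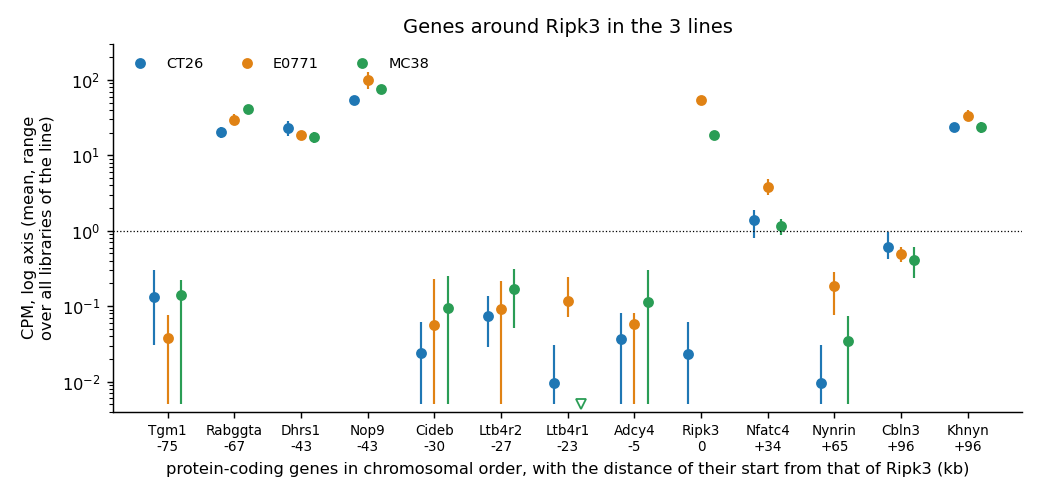
CPM on a log axis of Ripk3 and the 12 protein-coding genes that start within 100 kb of it, in chromosomal order; points are means and bars ranges over all libraries of a line, and the open triangle is a gene with 0 counts in all libraries. Ripk3 is the position where CT26 lies far below E0771 and MC38, while Nop9, Dhrs1, Rabggta and Khnyn lie above 10 CPM in all 3 lines.

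RefSeq promoter entries (GRCm38.p6) matched Ripk1, Ripk3 and Mlkl, and Zbp1 was not matched. The 250 bases before the RefSeq start are shown for Ripk3 and Mlkl, and those of Ripk1 are not shown. Ripk3 was near 0 in CT26, and Mlkl, like Zbp1, was called higher in CT26 and MC38. The windows shown are the C57BL/6 reference on the reverse strand, chr14:55788858-55789107 and chr8:111338206-111338455, and capitals mark CpG dinucleotides.
Ripk3: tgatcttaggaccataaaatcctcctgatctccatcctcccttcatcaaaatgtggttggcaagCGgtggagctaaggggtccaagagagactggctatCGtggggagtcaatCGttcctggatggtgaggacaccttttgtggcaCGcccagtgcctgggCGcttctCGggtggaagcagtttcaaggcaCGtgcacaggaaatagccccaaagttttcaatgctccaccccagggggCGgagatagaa
Mlkl: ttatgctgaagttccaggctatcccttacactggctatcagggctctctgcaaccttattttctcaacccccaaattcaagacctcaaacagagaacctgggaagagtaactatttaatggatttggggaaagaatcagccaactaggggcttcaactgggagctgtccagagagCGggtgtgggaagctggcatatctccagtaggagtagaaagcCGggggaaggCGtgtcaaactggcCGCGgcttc
The Ripk3 window holds 8 CpG dinucleotides and that of Mlkl 5, and over 32851 promoter entries the median was 6. The interferon-stimulated response element core (GAAA, any 2 bases, GAAA) was searched on both strands. It was not found in these windows, while 2.98% of all windows of this length held it. A window without a match says only that these letters are not in it.

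Mlkl (ENSMUSG00000012519.14), the effector that breaches the membrane, lies on the reverse strand of chromosome 8 at 111311797 to 111338177. It was among the well expressed genes of every line. CT26 had 109, 112 and 113 CPM with control and 229, 222 and 224 CPM with RIG-I agonist. MC38 had 142 and 142 CPM against 274 and 278 CPM. In E0771 the control libraries were apart, at 111 and 75.5 CPM, and the RIG-I libraries were at 217 and 175 CPM. In each line all RIG-I libraries were above all controls, which held for 22% of genes in CT26, 19.7% in E0771 and 33.8% in MC38.

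Mlkl rose 2.09-fold in CT26 (log2 1.07, SE 0.05, adjusted p = 3.81e-10) and 1.94-fold in MC38 (0.95, SE 0.04, adjusted p = 7.11e-15). In E0771 the value was 1.08 (SE 0.24, 95% interval 0.48 to 1.69) and was not called (adjusted p = 0.171). It was called there by DESeq2 (1.08, adjusted p = 0.00147) and in the fit of all 14 libraries (1.07, adjusted p = 0.000203). Mlkl was also called there in edgeR with the replicate block (1.10, adjusted p = 2.43e-07), though no label pairs the replicates. Without control replicate 1 the value was 1.39. The differences between lines were -0.06 for CT26 minus E0771 (95% interval -0.44 to 0.33), 0.06 for CT26 minus MC38 (-0.32 to 0.44) and 0.12 for E0771 minus MC38 (-0.31 to 0.54), with adjusted p of 0.96, 0.912 and 0.896. Under control agonist MC38 was highest, 1.28-fold above CT26 (adjusted p = 0.0202) and 1.53-fold above E0771 (adjusted p = 0.00183). CT26 and E0771 were not told apart (0.25, 95% interval -0.02 to 0.53, adjusted p = 0.0914). That value ranged from 0.01 to 0.56 over the 14 libraries left out in turn. It was 0.56 without E0771 control replicate 1 and 0.27 without either E0771 RIG-I library.

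Among the genes that could be tested within a line, 3 of 3 rose in CT26, where 38.4% of all genes were called and 19.8% were higher. In MC38 2 of 4 rose, Zbp1 and Mlkl, against 18.9% of all genes higher and 35.8% called. In E0771 1 of 4 was called higher in the fit without a block, Zbp1, against 1.53% higher and 1.56% called. None of the 4 fell in any line, where 18.6% of all genes fell in CT26, 16.9% in MC38 and 0.0256% in E0771.

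Levels of different genes are compared per length of annotated exon, in RPKM. With control agonist Mlkl was the highest of the 4 in each line, at 48.3 ± 0.959 RPKM in CT26 (SD, n = 3), 40.4 ± 10.8 in E0771 and 61.8 ± 0.00745 in MC38 (SD, n = 2 each). Among protein-coding genes these levels were at percentile 95, 94.7 and 96.8. Ripk3 followed in E0771 at 23.6 ± 0.178 RPKM and in MC38 at 8.47 ± 0.684, above Ripk1 at 5.8 ± 0.303 and 4.49 ± 0.0689. In CT26 Zbp1 followed at 14 ± 0.823 and Ripk1 at 6.68 ± 0.388. With RIG-I agonist Zbp1 became the highest in CT26, at 148 ± 3.52 RPKM against 97.7 ± 1.5 for Mlkl. In MC38 Zbp1 reached 74.8 ± 0.853 and Mlkl 120 ± 1.23, and in E0771 Zbp1 reached 30 ± 3.66 and Mlkl 85.1 ± 13 RPKM. The order of Zbp1 and Mlkl thus differed between CT26 and the other lines, without overlap of libraries. Ripk1 stayed between 4.44 and 8.71 RPKM in all libraries. The exon length sums all annotated isoforms, and which isoforms were used was not measured.

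**Figure D4:**
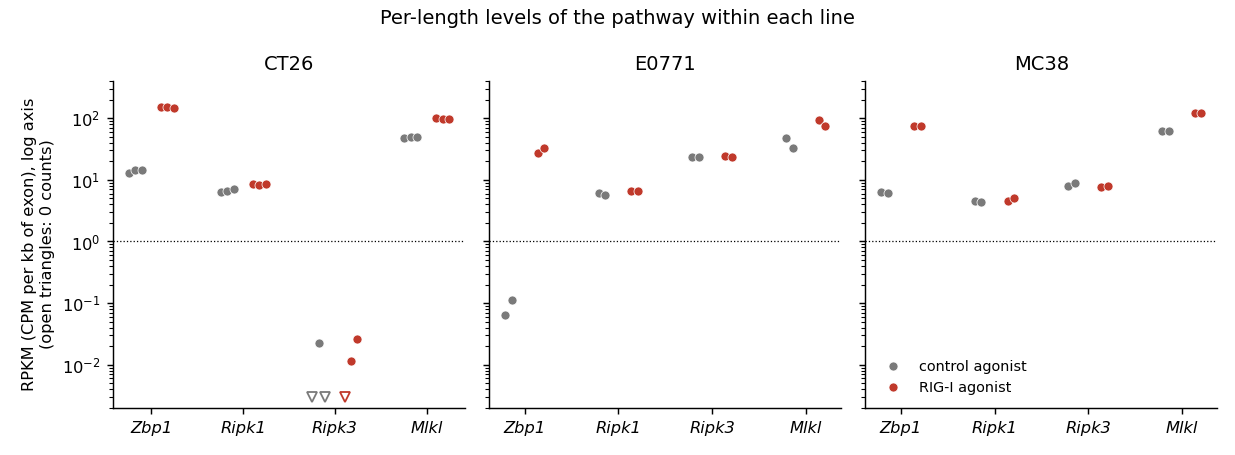
RPKM of the 4 genes in every library of CT26, E0771 and MC38 on a log axis, by agonist; open triangles are libraries with 0 counts and the dotted line is 1 RPKM. The gap in CT26 is at Ripk3 under both agonists, the gap in E0771 is at Zbp1 under control agonist, and MC38 has none.

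The other genes around the pathway were described by 10 lists of 83 genes in all. In CT26, 37 of 80 tested rose and 8 fell, with a median log2 fold change of 0.13 against 0.00 over all genes. In MC38, 32 of 79 rose and 5 fell (median 0.12). In E0771, 13 of 79 rose and none fell (median 0.18 against -0.01 over all genes). The share that rose is to be read against 19.8%, 18.9% and 1.53% of all genes.

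Of 6 genes of other RHIM and nucleic acid inputs, 4 rose and 1 fell in CT26, 4 rose in MC38 and 3 rose in E0771, and the others were not called. The gene that fell in CT26 was Mavs, the adaptor gene of RIG-I, by 0.19 from 73 ± 1.17 to 62 ± 2.78 CPM (adjusted p = 0.0223), named after its value was seen. Tlr3, an endosomal sensor of double-stranded RNA, went from 32.3 ± 1.18 to 176 ± 4.45 CPM in CT26 (log2 2.49, adjusted p = 4.92e-13), from 4.04 ± 0.0454 to 32.8 ± 1.99 CPM in E0771 (3.03, adjusted p = 0.00469) and from 62.9 ± 0.426 to 189 ± 3.71 CPM in MC38 (1.58, adjusted p = 2.19e-17). Its adaptor gene Ticam1, which encodes TRIF, rose by 0.62 in CT26 and 0.49 in MC38 (adjusted p = 0.000425 and 0.00492) and was at 0.35 in E0771 (adjusted p = 0.627). The MC38 value of Ticam1 was not called by DESeq2 (adjusted p = 0.124) or without RIG-I replicate 2 (0.0533). Ddx58, the gene of RIG-I itself, rose by 1.44 in CT26 and 0.79 in MC38. In E0771 Ddx58 was at 2.27 (adjusted p = 0.0447), which did not pass without RIG-I replicate 1 (0.13) or 2 (0.151). Ifih1, which encodes the RNA sensor MDA5, rose in all lines, by 2.26, 3.37 and 1.06 in CT26, E0771 and MC38.

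Of 4 genes of products that restrain ZBP1 or limit self nucleic acids, 4 rose in CT26, 3 in MC38 and 2 in E0771. Adar, which encodes an RNA-editing enzyme that restrains ZBP1, rose by 0.97 in CT26 (adjusted p = 1.42e-06) and by 0.63 in MC38 (adjusted p = 2.61e-11, but 0.154 in the fit of all 14 libraries). In E0771 Adar was at 54.5 and 105 CPM with control and 185 and 251 CPM with RIG-I agonist at the extremes of each group (1.46, adjusted p = 0.218, or 0.0128 without control replicate 1). Trex1, a DNA exonuclease gene, rose by 2.78, 2.32 and 1.24 in CT26, E0771 and MC38, and Samhd1, a nucleotide hydrolase gene, by 1.21, 1.48 and 0.76.

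Of 8 genes of death ligands and TNF family receptors, 6 of 6 tested rose in CT26, 2 of 7 in E0771 and 4 of 6 in MC38, where 1 fell. The median log2 fold change of those tested in CT26 was 0.22. The receptor genes Tnfrsf1a, Tnfrsf10b, Ltbr and Tnfrsf1b, named after their values were seen, rose little there. Tnfrsf1a, for example, went from 84.9 ± 4.81 to 95.4 ± 4.06 CPM. Tnfsf10, the gene of the ligand TRAIL, rose by 4.86, 5.96 and 2.09 in CT26, E0771 and MC38 (adjusted p = 4.92e-13, 0.0077 and 1.51e-12). Fas, a death receptor gene, rose by 2.83 in E0771 (adjusted p = 0.0186) and 0.76 in CT26 (adjusted p = 0.0103, or 0.0504 without control replicate 2 and 0.0633 without RIG-I replicate 2), and was at 1.09 in MC38 (adjusted p = 0.0623). The TRAIL receptor gene Tnfrsf10b was the gene that fell in MC38, by 0.36. Tnf had 0 counts in the CT26 controls and 32 with RIG-I agonist, at least 10.8-fold higher from a limit of 3 counts over the control group. In E0771 Tnf was at 1.38 ± 0.82 and 11.3 ± 4.68 CPM (3.02, adjusted p = 0.102, or 6.12e-05 by DESeq2), and MC38 had 2 and 14 counts of Tnf, whose depth-scaled ratio was 6.4 (counting interval 1.47 to 58).

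Rises at the caspase-8 checkpoint were small. Of 6 genes, 4 rose in CT26 and 1 in MC38, and none was called in E0771. Casp8 rose by 0.31 in CT26 (from 38.1 ± 1.44 to 45.8 ± 0.681 CPM, adjusted p = 0.001) and was at 0.36 in E0771 and 0.12 in MC38 (adjusted p = 0.496 and 0.154). Cflar, which encodes cFLIP, rose by 0.27 in CT26 and 0.30 in MC38 (adjusted p = 0.000955 and 0.0065), was at 0.49 in E0771 (adjusted p = 0.267), and was not called in MC38 without control replicate 2 (0.0625) or RIG-I replicate 2 (0.146). Fadd, the adaptor gene, was at 0.10, -0.19 and 0.09 in CT26, E0771 and MC38 with no call. Traf2 and Traf5, adaptor genes at the TNF receptor, rose by 0.56 and 0.50 in CT26. Under control agonist Cflar stood at 122 ± 3.84 CPM in CT26, 28.2 ± 0.431 in E0771 and 49.3 ± 3.24 in MC38, and CT26 exceeded the other lines by 2.11 and 1.30 (adjusted p = 1.02e-10 and 6.22e-09).

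Of 13 ubiquitin ligase and editor genes, 7 rose and 1 fell in CT26, 6 rose in MC38 and 1 rose in E0771. Rnf31, which encodes the catalytic subunit of the linear ubiquitin ligase, rose 1.99-fold in CT26 and 1.66-fold in MC38. Tnip1, a partner of the editor A20, rose by 1.56 in E0771 (adjusted p = 0.0278). Birc3, which encodes cIAP2, rose by 0.91 in CT26 and 0.76 in MC38 (adjusted p = 0.000108 and 0.00155), and DESeq2 did not call it in MC38 (adjusted p = 0.0527). Tnfaip3, which encodes A20, rose by 1.08 in CT26 (adjusted p = 1.33e-08) and was at 2.83 in E0771 (adjusted p = 0.0994, or 4.52e-06 by DESeq2). The gene that fell in CT26 was Xiap, by 0.25, which was named after its value was seen.

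The next 3 lists hold genes that act on RIPK1, RIPK3 and MLKL or on the membrane, and their counts stand beside 38.4% of all genes called in CT26, 35.8% in MC38 and 1.56% in E0771. Of 12 genes of kinases that restrain RIPK1, or of their adaptors and subunits, 3 rose and 1 fell in CT26 and in MC38. None was called in E0771. Azi2, an adaptor gene of TBK1, rose by 0.49 and 0.40. The list labelled RIPK3 and MLKL support holds 10 genes of chaperones, phosphatases and kinases, whatever their direction of action on the pathway. Of these, none rose and 2 fell in CT26, 2 rose and 1 fell in MC38 and none was called in E0771. The gene that fell in MC38 was Tyro3, a TAM receptor kinase gene, by 0.80 from 81.2 ± 3.02 to 46.6 ± 0.552 CPM (adjusted p = 1.85e-10). The list of ESCRT-III membrane repair holds 9 genes, of ESCRT-III subunits and of factors that work with them (Vps4a, Vps4b and Pdcd6ip). Of these, 1 rose and 2 fell in CT26, 2 rose and 1 fell in MC38, and none of 8 tested was called in E0771. Chmp4b rose by 0.71 in CT26 and in MC38 (adjusted p = 2.93e-07 and 1.92e-12) and was at 0.57 in E0771 (adjusted p = 0.302). Il33, an alarmin gene, rose in CT26 from 10 to 262 counts (4.74, adjusted p = 4.35e-07).

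Genes of the interferon route to Zbp1 rose in 7 of 11 cases in CT26, 6 in MC38 and 5 in E0771, and 1 fell in CT26 and in MC38. Irf7, the gene of a transcription factor that amplifies interferon, rose by 2.51, 5.43 and 2.58 in CT26, E0771 and MC38. Like Zbp1, Irf7 was lowest in E0771 under control agonist, at 10.8 ± 4.2 CPM against 188 ± 4.73 in CT26 and 24.9 ± 1.35 in MC38. Its effect in E0771 exceeded that in CT26 by 2.96 (adjusted p = 4.96e-06) and that in MC38 by 2.83 (adjusted p = 1.74e-05).

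**Figure D5:**
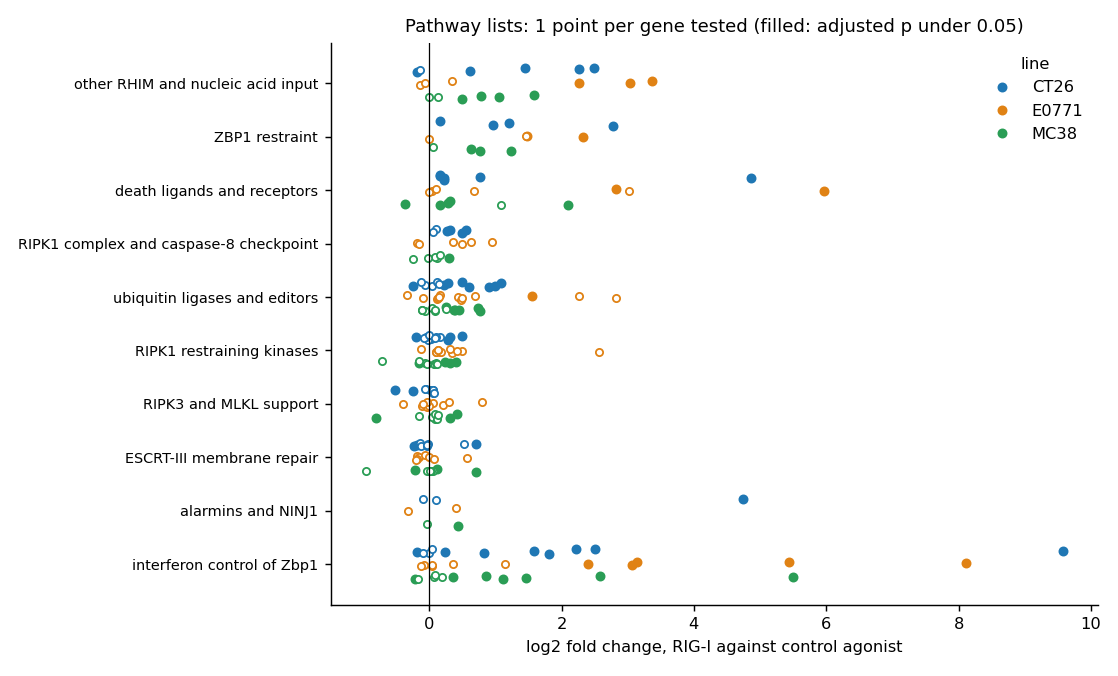
Log2 fold change of each tested gene of the 10 pathway lists, RIG-I against control agonist, by line; filled points have an adjusted p under 0.05. Sensors, death ligands and interferon genes reach values above 2, whereas the caspase-8 checkpoint, RIPK3 and MLKL support and ESCRT-III lists lie between -0.96 and 0.95.

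Across the 14 libraries the genes most like each member in log2 CPM were named by Pearson's r among 14657 genes, as a description only, since libraries of a line share that line and its replicates. For Zbp1 they were AC125149.3 (r = 0.994), AC132444.4 (0.991) and Uba7 (0.990), which encodes the activating enzyme of ISG15. For Mlkl they were Tap2 (0.978), a peptide transporter gene, Il18bp (0.970) and Misp (0.967). For Ripk3 they were the homeobox genes Hoxd9 (0.999) and Hoxc10 (0.998) and Ydjc (0.998), and for Ripk1 they were Gnl3 (0.982), Med6 (0.977) and Dapp1 (0.972).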

How the data were processed

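RNA of the 3 lines was read from stranded poly(A) libraries, per the labels' protocols. The authors deposited 3 tables, 1 per line, of estimated counts per Ensembl gene. Salmon, DESeq2 and GRCm38 are named in the submitters' processing notes, with no roles or versions, and the annotation was not given in the sources used here. Groups and replicate numbers came from sample titles, and each column was matched to 1 sample by its name in the labels. Symbols, positions and exon lengths came from GENCODE M21 (34582 identifiers matched without version, 70 more were named from the annotation file and 214 had no match).

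Estimated counts were rounded. Within a line, agonists were compared in edgeR 4.0.16 under R 4.3.3 (quasi-likelihood F test, TMM scaling, filterByExpr with min.count 10). P-values were adjusted by Benjamini-Hochberg across the whole table, and an adjusted p under 0.05 was called. SE is the log2 fold change divided by the root of F. Differences between lines were contrasts in 1 fit of all 14 libraries with 1 shared spread, which can make p-values too small for E0771. Levels use the scaling of all 14 libraries and fold changes that of each line, so their ratios differ slightly. Alternatives were DESeq2 1.42.0, its size factors, no filter, voom with a variance per line (limma 3.58.1), each library left out and a replicate block. Counting intervals are exact binomial 95% intervals, and with the floors of 3 counts they cover counting error only. The fits were also run on simulated counts with known changes. These had more spread for MC38 than was measured and no correlation between same-numbered replicates, so they do not test the fits in the setting of these data.

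The members and lists were chosen with earlier results of these data known. Named were the 4 members, the 3 genes most like each, and from each list at most 4 genes per line among those called in a line, by size of change, with Casp8, Fadd, Cflar, Tlr3, Ticam1, Adar and Tnf always. In CT26 same-numbered replicates deviated together to a small degree (r = 0.11, 0.11 and 0.29), and no label pairs them. The fits reported for each line used no pairing, and the replicate block was run as an alternative only. Other numbers correlated as much in places (0.15 for control 1 with RIG-I 2, 0.10 for control 2 with RIG-I 1), and replicate 3 alone stood apart.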

Additional observations from a re-analysis of the deposited data

Results flagged for a closer look

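The response of Zbp1 to the RIG-I agonist differed between lines in a test of the difference itself. The log2 fold change in CT26 minus that in E0771 was -4.98, and that in E0771 minus that in MC38 was 4.80. Both comparisons share the E0771 libraries, where the controls held 3 and 5 counts of Zbp1. No group had the 4 libraries needed to look for a library far from the others.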

How the results depend on the processing

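The counts of expressed members were the same in all 6 groups under every threshold, on unscaled library totals (an alternative chosen after seeing the data) and without any library. Zbp1 kept its direction and its call in every line and in both differences that involve E0771 under all alternatives run. Numbers of genes called over the whole table moved more. Agonist effects gave 3503 (CT26, 5334 in the report's fit), 1588 (E0771, 183) and 998 (MC38, 4437) in the fit of 14 libraries, 418 (E0771) and 2256 (MC38) by DESeq2, and 286 in E0771 without the filter. Differences of effects gave 180, 2579 and 157 with a variance per line for CT26 minus E0771, CT26 minus MC38 and E0771 minus MC38 (568, 557 and 309 in the report's fit), and DESeq2 gave 977 for CT26 minus MC38 and 510 for E0771 minus MC38. Leaving out 1 library gave 349 to 863, 167 to 1049 and 166 to 477 for these differences. With the replicate block, 2458 genes were called in E0771, and 1535, 1816 and 880 in the differences. E0771 replicates of the same number correlated in their deviations (r = 0.62) and MC38 ones did not (-0.02), but no label says that the numbers mark a shared batch. With 2 libraries per agonist, both same-numbered pairs of a line must give the same r, so each r is 1 value and not a repeated one. In CT26 the block changed no call of a member, and control levels between lines allow no block, since it would absorb the line. The cause of these shifts was not tested.

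Among the members, Mlkl in E0771 was called with the replicate block (1.10, adjusted p = 2.43e-07), by DESeq2 (1.08), in the fit of 14 libraries (1.07) and without control replicate 1, with 0.83 to 1.39 over the libraries left out. Ripk1 in CT26 minus E0771 under control agonist was not called without the filter (0.19, adjusted p = 0.0915) or with a variance per line (0.20), and ranged from 0.15 to 0.27 over the libraries left out. Control levels of Mlkl ranged from 0.01 to 0.56 for CT26 minus E0771 and from -0.36 to -0.34 for CT26 minus MC38, the latter not called without CT26 control replicate 1 (adjusted p = 0.0541) or either MC38 control (0.0902 and 0.0852). No value of a member changed sign with a call on either side. With 2 libraries per agonist, leaving out 1 leaves a lone library that is assumed to vary like the others. Depth limits Ripk3 in CT26 and Zbp1 in the E0771 controls.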

Other observations

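Ifnb1, the gene of interferon beta, and Zbp1 did not rank the lines alike by level with the RIG-I agonist. Ifnb1 reached 111 ± 3.04 CPM in CT26, 13.2 ± 0.426 in E0771 and 3.46 ± 0.148 in MC38, from 16, 1 and 2 control counts. The ratio of Ifnb1 counts was 340 in E0771 (95% counting interval 60.7 to 13500) and 50.7 in MC38 (13.7 to 424). Zbp1 reached 522 ± 12.4 CPM in CT26, 106 ± 12.9 in E0771 and 264 ± 3.01 in MC38. E0771 thus had the higher Ifnb1 level and MC38 the higher Zbp1 level, without overlap of libraries in either gene. A test of these levels was not part of the design. Zbp1 started from 0.314 ± 0.123 CPM in E0771 and 22 ± 0.349 CPM in MC38, and rose 332-fold and 12-fold. By change E0771 was thus above MC38 in Zbp1. For Ifnb1 the order of change between E0771 and MC38 was not resolved. Its ratios rest on 1 and 2 control counts, and their counting intervals overlap.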
